A study of Mus musculus with 23 samples.

Results

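The genes described here are the 56 counted mouse odorant receptors with symbols from Olfr763 to Olfr829, pseudogene symbols left out. They are 56 of 1102 odorant receptor symbols and of 23481 gene symbols in the count files, and they were chosen by symbol alone, without any measured value. In the GENCODE annotation of GRCm38, 54 of the 56 lie on chromosome 10 within chr10:129010791-130214403, a stretch of 1203.6 kilobases. Olfr779 and Olfr785 are annotated receptors with symbols between Olfr763 and Olfr829, but they are not among the counted symbols. Olfr828 and Olfr829 lie on chromosome 9, so they are outside the chromosome 10 cluster although their symbols fall in its range. On chromosome 10, 24 members are on the plus strand and 30 on the minus strand. Mettl7b and the receptor Olfr9 precede the cluster, and Neurod4 and Tespa1 follow it.

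The libraries came from olfactory epithelium of C57BL/6 mice at postnatal day 21, exposed for 1 h to an odor or to a control, and no other allele or genotype is given in the labels. All libraries, controls included, hold RNA immunoprecipitated through pS6, the phosphorylated form of a ribosomal protein, which appears in neurons after activity. The acetophenone experiment held controls of litters 1 to 5, 100% acetophenone in litters 1 to 3 and 1% acetophenone in litters 3 to 5. The experiment with TMT (trimethylthiazoline, a fox odor) held a control, a 1% and a 100% library in each of litters 1 to 4. How many animals went into a library is not stated in the labels, nor whether a litter number means the same litter in both experiments.

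Odorant receptors are G protein-coupled receptors on the cilia of olfactory sensory neurons. Each mature neuron uses a single receptor gene, usually from a single allele, so a receptor's RNA in the epithelium depends on how many neurons chose it and on how much RNA each holds. Receptor genes sit in clusters of related copies, their coding sequence is usually in 1 exon, and neighbours can be nearly identical. In a pS6 pull-down, a receptor used by neurons that an odor activates becomes enriched against a control. All libraries are bulk samples, in which fewer neurons of a type and less RNA per neuron cannot be told apart.

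All 56 members had their coding sequence in 1 exon, of 924 to 984 bases, with a median GC content of 41.3%. For 49 members the most similar coding sequence among 1103 receptors with one belonged to another member. Identity with the closest receptor ranged from 67.84% for Olfr796 to 99.27% for Olfr819, with a median of 92.8%. The first 90 coding bases are printed below for 3 pairs of differing identity, because likeness between copies bears on which reads can be counted. Capitals mark the bases at which the members of a pair differ. Olfr796 is on the minus strand at chr10:129608390-129608479 and Olfr9 on the plus strand at chr10:128989914-128990003. Olfr791 is at chr10:129526229-129526318 and Olfr780 at chr10:129321625-129321714, both on the plus strand. Olfr782 is at chr10:129350565-129350654 and Olfr804 at chr10:129704880-129704969, also on the plus strand.
Olfr796: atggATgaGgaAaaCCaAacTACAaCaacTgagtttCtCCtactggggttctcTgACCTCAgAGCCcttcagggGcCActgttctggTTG
Olfr9: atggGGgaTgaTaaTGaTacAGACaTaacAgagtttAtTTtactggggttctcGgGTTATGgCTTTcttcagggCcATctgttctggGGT
Olfr791: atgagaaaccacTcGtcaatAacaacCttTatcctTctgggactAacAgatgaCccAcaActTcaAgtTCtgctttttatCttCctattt
Olfr780: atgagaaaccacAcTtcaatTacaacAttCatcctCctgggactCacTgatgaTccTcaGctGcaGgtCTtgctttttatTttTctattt
Olfr782: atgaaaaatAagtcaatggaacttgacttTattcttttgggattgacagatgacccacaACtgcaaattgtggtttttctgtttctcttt
Olfr804: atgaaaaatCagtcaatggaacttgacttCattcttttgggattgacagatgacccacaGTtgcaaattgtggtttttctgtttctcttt
Olfr796 and Olfr9 differ at 33 of these 90 bases, Olfr791 and Olfr780 at 17, and Olfr782 and Olfr804 at 4. Over the whole coding sequence the pairs are 67.84%, 76.5% and 96.71% identical. Olfr804 is the closest member to Olfr782, whose closest receptor is Olfr779, not a member, at 97.24%.

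The values used throughout are counts read as uniquely aligned reads, from the first value column of each file. The last column was read, also from its values, as estimated counts in which multiply aligned reads are included, and the unique share of a member is its first-column total as a percentage of its last-column total. Over all libraries, unique reads were 61.2% of the members' estimated counts and 63.6% of those of the other 1046 receptors. Among 43 members with at least 20 estimated counts, the 26 with a closest identity of at least 90% had a unique share of 3.6 to 63.33%, with a median of 34.3%. The 17 members with a lower identity had a unique share of 62.0 to 100%, with a median of 98.0%. Across these 43 members the rank correlation of identity and unique share was -0.86, a description over genes that are not independent, with an identity limit of 90% set after the values were seen.

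**Figure D1:**
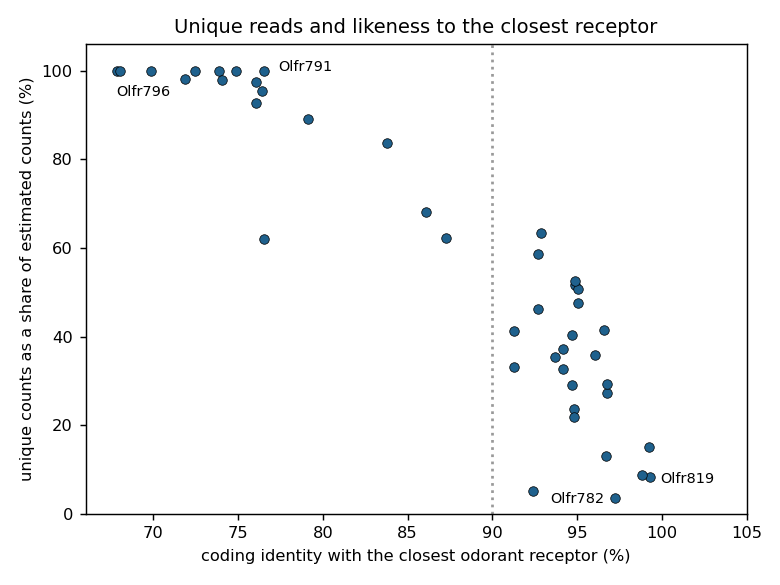
Each point is 1 of the 43 members with at least 20 estimated counts. The x axis gives coding identity with the closest odorant receptor in percent and the y axis unique counts as a percentage of estimated counts, and the dotted line is at 90% identity. Olfr796 and Olfr791 sit at 100% unique, while Olfr782 (3.6%) and Olfr819 (8.22%) sit near the bottom.

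Some members were barely countable. Olfr765, Olfr774 and Olfr814 had no unique count in any of the 23 libraries. With 3 counts as the limit that a count of 0 allows, this allows up to 0.315 to 1.42 CPM, depending on the library, where CPM is a count scaled to 1e+06 counts of the library. Fewer than 10% of the estimated counts were unique for Olfr765, Olfr768, Olfr773, Olfr782, Olfr787, Olfr814, Olfr819 and Olfr824. Olfr782 held 8 unique counts of 222.1 estimated counts, and Olfr819, whose closest receptor is Olfr247, held 10 of 121.7. Low unique counts alone cannot be read as low expression of these members. Some of them were also low with multiply aligned reads included. Over all libraries Olfr774 had no estimated count, Olfr814 had 3.5, and Olfr765, Olfr768 and Olfr773 had 9.5 to 11.7.

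Of the 56 members, 53 had a unique count in some library. Totals over the 23 libraries were at least 100 counts for 17 members, 21 to 99 for 16 and 1 to 20 for 20. The median total was 38 counts per member and 50.5 per other receptor. The highest total was 576 counts, for Olfr796, against 5798 for the highest other receptor. No unique count was found for 5.36% of members and 5.93% of other receptors. Of the 17 members with at least 100 counts, 11 belonged to the 21 whose closest identity is under 90%.

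Levels per coding kilobase, averaged over the 23 libraries, were highest for Olfr796 at 7.61 CPM per kilobase. This order pools both experiments and uses unique counts, without correction for the unique share. That share was 100% for Olfr796 and 95.29 to 99.82% for Olfr821, Olfr771 and Olfr788. It was 68.09% for Olfr812, 63.33% for Olfr786, 58.64% for Olfr801, 52.42% for Olfr799 and 37.12% for Olfr805. Olfr805 held 560.3 estimated counts over all libraries, beside 576 for Olfr796. With 100% acetophenone the mean levels of Olfr791 (14.0 CPM), Olfr799, Olfr801 and Olfr805 (13.5 CPM each) stood beside 12.4 CPM for Olfr796. Over all 23 libraries Olfr796 was followed by Olfr821 at 5.03, Olfr771 at 4.95, Olfr788 at 4.53, Olfr786 at 4.06, Olfr812 at 3.94, Olfr801 at 3.93 and Olfr799 at 3.77 CPM per kilobase. In the acetophenone controls the SD of each of these 7 was about as large as its mean or larger, so neighbours in this order did not differ beyond their spread. There Olfr821 stood at 5.15 ± 4.98 CPM, Olfr771 at 7.25 ± 8.17 CPM and Olfr799 at 4.48 ± 6.74 CPM (SD, n = 5).

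**Figure D2:**
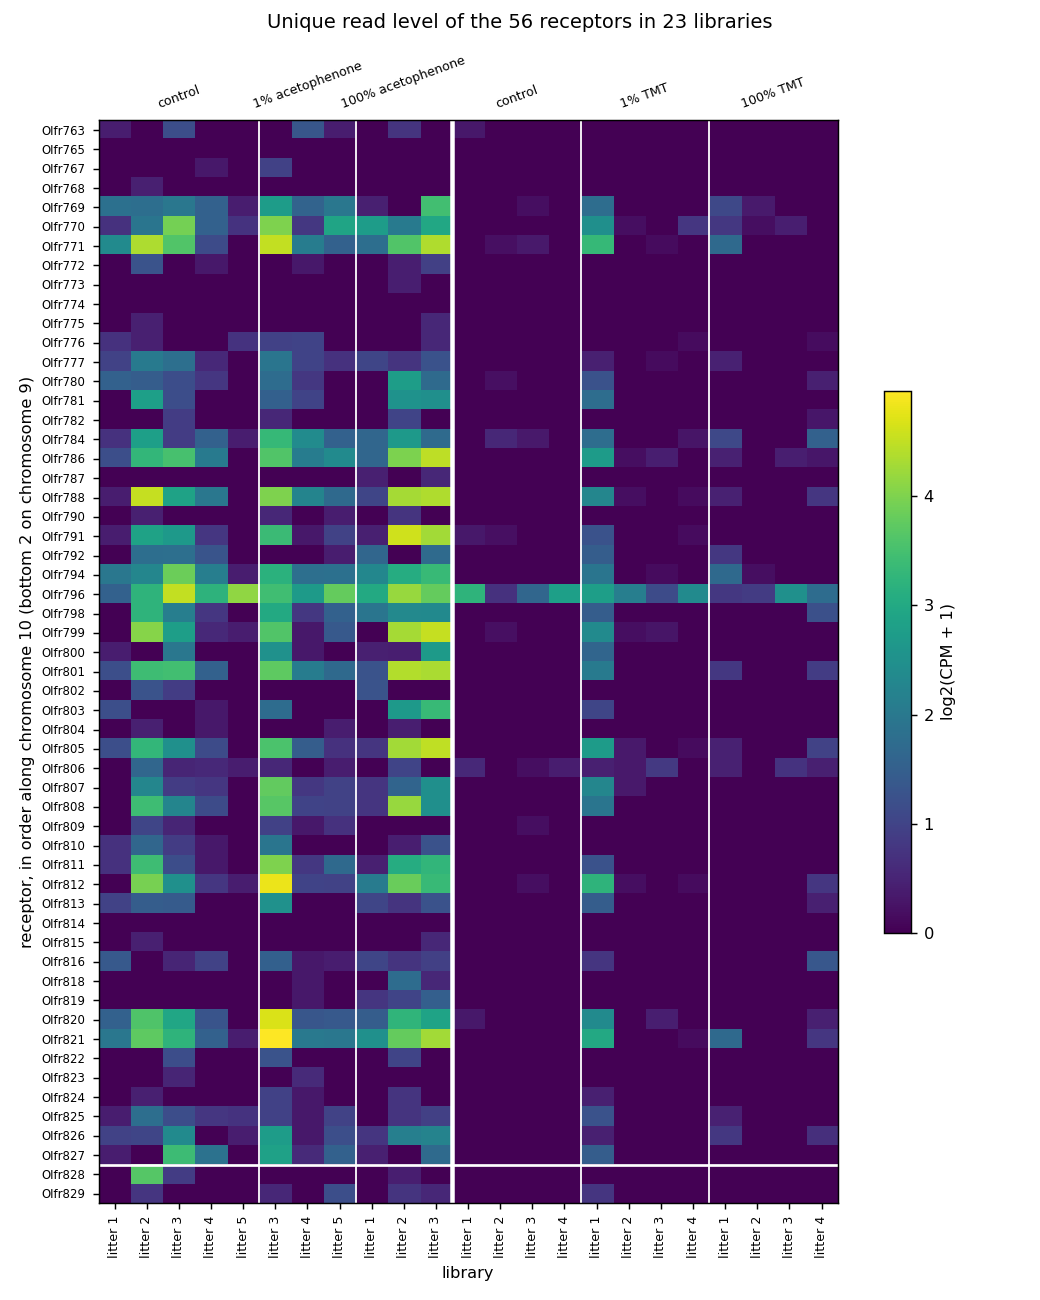
Rows are the 56 members in their order along chromosome 10, with Olfr828 and Olfr829 of chromosome 9 below the white line, and columns are the 23 libraries by group and litter. Colour gives log2(CPM + 1) of unique counts. Olfr796 is the only row with signal in all libraries, and the acetophenone libraries of litters 2 and 3 and the 1% TMT library of litter 1 are the brightest columns.

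The members took a smaller share of receptor counts than their number. They make up 5.08% of receptor symbols but held 2.55% of all receptor counts, and their share was under 5.08% in 23 of 23 libraries. Shares per library are given with 95% Wilson intervals in the plot of shares by group, and these intervals cover at most counting error. In the acetophenone controls of litters 1 to 5 the share was 1.72, 4.65, 3.52, 1.80 and 1.58%. With 100% acetophenone it was 1.86, 3.55 and 3.41% in litters 1 to 3, and with 1% acetophenone 4.31, 2.15 and 2.35% in litters 3 to 5. The group means were 2.65 ± 1.37% (SD, n = 5) in controls, 2.94 ± 0.939% (n = 3) at 100% and 2.94 ± 1.20% (n = 3) at 1%. The 3 groups overlapped, and their means lay closer together than 1 SD.

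Within litters, the share at 1% acetophenone was above that of its control in 3 of 3 litters, and at 100% in 1 of 3. No test was run on these shares. The larger difference lay between litters. The 5 libraries of litters 2 and 3 had shares of 3.41 to 4.65% and 38 to 41 members detected, and the 6 of litters 1, 4 and 5 had 1.58 to 2.35% and 12 to 35 members. These 2 sets of litters were formed after the values were seen and were not tested. Receptors as a whole were also higher in litters 2 and 3, at 0.484 to 0.820% of all counts against 0.134 to 0.272%. Omp, a marker of mature olfactory neurons, went the other way, at 113.6 to 317.7 CPM in litters 2 and 3 and 878.5 to 2229 CPM in the other 3. The summed level of 10 mature neuron markers overlapped, at 4420 to 7505.6 CPM and 4386.6 to 7582.3 CPM. Markers of ensheathing glia, 4 genes summed, stood at 53.0 to 160.0 CPM in litters 2 and 3 and at 1042 to 1797 CPM in the other 3, without overlap. The part of these in the members' difference was not tested.

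In the TMT experiment the members held 0.791, 0.742, 0.872 and 1.94% of receptor counts in controls of litters 1 to 4. With 1% TMT the share was 3.61, 1.15, 0.690 and 0.816%, and with 100% TMT 0.780, 0.288, 1.20 and 0.803%. Group means were 1.09 ± 0.569% in controls, 1.57 ± 1.38% at 1% and 0.768 ± 0.374% at 100% (SD, n = 4 each), and the groups overlapped. Without the library of litter 1, the mean at 1% was 0.884%. The share at 100% was below that of its control in 3 of 4 litters. In litter 1 the 2 shares, 0.780 and 0.791%, lay within each other's Wilson intervals. In litter 4, 38 of the control's 40 member counts were of Olfr796. At 1% TMT the share was above that of its control in litters 1 and 2 and below it in litters 3 and 4. These shares were not tested.

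**Figure D3:**
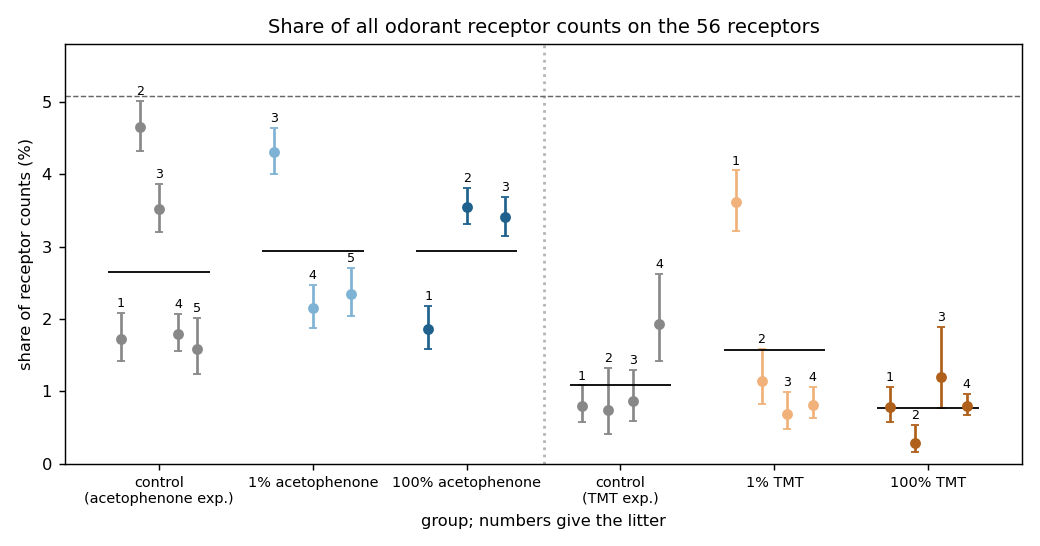
Points are libraries with 95% Wilson intervals, labelled with their litter, and the y axis is the members' percentage of all odorant receptor counts. Horizontal bars are group means and the dashed line marks the members' 5.08% of receptor symbols. All 23 libraries lie below the dashed line, and in the TMT experiment 1% TMT in litter 1 stands at 3.61%.

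Most members were near 0 in the TMT experiment. A count was found for 53 members in the acetophenone libraries and 37 in the TMT libraries, and for 26 in the 9 TMT libraries of litters 2 to 4. Of the 1046 other receptors, 967, 830 and 704 had a count in these 3 sets. Receptors as a whole took 0.134 to 0.820% of all counts in the acetophenone libraries and 0.0232 to 0.267% in the TMT libraries. The TMT libraries were not shallower, at 2672161 to 9526932 counts against 2118099 to 4151769. Between 2 and 17 members were detected per library in TMT litters 2 to 4. In TMT litter 1, 5 were detected in the control, 33 at 1% and 16 at 100%. The share of members detected was below that of other receptors in 11 of 12 TMT libraries and in 8 of 11 acetophenone libraries. TMT controls detected 3.57 to 12.5% of members and 17.1 to 32.4% of other receptors. The 2 experiments differ in more than the odor, controls included, so the odor and the experiment cannot be told apart here, and no test between them was run.

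Olfr796 departed from that pattern in how often it was detected, while its mean level was also lower in the TMT experiment. It was the only member with a count in all 23 libraries, which 31 receptors of 1102 had. Its counts in the acetophenone controls of litters 1 to 5 were 6, 24, 52, 34 and 51. With 100% acetophenone they were 20, 51 and 28 in litters 1 to 3, and with 1% acetophenone 21, 22 and 40 in litters 3 to 5. In TMT litters 1 to 4 the counts were 34, 4, 16 and 38 in controls, 17, 25, 11 and 40 at 1%, and 2, 6, 14 and 20 at 100%. Its mean level was 11.4 CPM in the acetophenone controls, 9.42 at 1% and 12.4 at 100%. In the TMT experiment it was 4.26 CPM in controls, 3.67 at 1% and 2.16 at 100%. The groups within each experiment overlapped. Olfr806, named after its values were seen, had counts in 3 of 4 libraries of each TMT group, at means of 0.234 to 0.35 CPM. Its means in the acetophenone groups were 0.265 to 0.665 CPM.

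Olfr796 had the most counts of any member in 16 of 23 libraries, 10 of them in the TMT experiment. It supplied 174 of 338 member counts in TMT litters 2 to 4, or 51.5%, against 349 of 3959 in the acetophenone libraries, or 8.82%. Leaving out TMT litter 1 was not set in advance. In that litter Olfr796 supplied 87.2% of member counts in the control, 6.14% at 1% and 5.0% at 100%. In the TMT control of litter 4 it held 38 of the 40 member counts, and in the acetophenone control of litter 5 it held 51 of 65. Its level ranged from 0.625 to 21.8 CPM. The other 55 members together ranged from 0.314 CPM, in the TMT control of litter 4, to 302.2 CPM, in the 1% acetophenone library of litter 3. Without the member with the most counts in each library, the mean share in TMT controls went from 1.09% to 0.242%.

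By sequence, too, Olfr796 stood at the end of the range. Its closest receptor by coding sequence was Olfr9, which precedes the cluster and lies outside the symbol range. Its 52.26% GC was the highest of the members. All of its 576 counts were unique. Olfr9 itself had 44 counts in 10 libraries. These are descriptions, and no relation between sequence and level was tested.

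**Figure D4:**
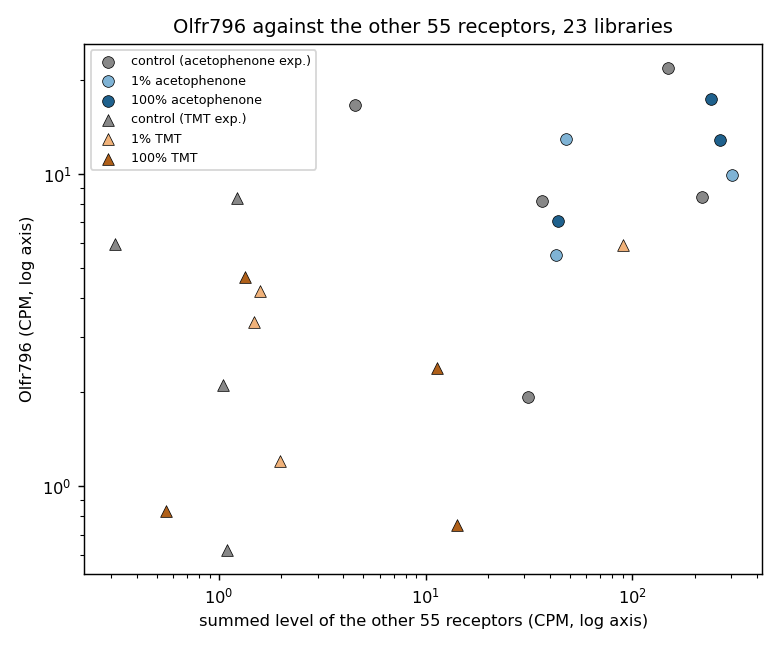
Each point is a library, circles for the acetophenone experiment and triangles for TMT, and colour gives the group. Both axes are logarithmic CPM, Olfr796 on y and the sum of the other 55 members on x. The other members span 0.314 to 302.2 CPM, while Olfr796 spans 0.625 to 21.8 CPM.

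Each odor was compared with its control by edgeR's quasi-likelihood test over all genes that passed a filter on low counts, with Benjamini-Hochberg adjustment and a threshold of 0.05. The first fit had no block, and a further fit took litter as a block, since the labels put treated and control libraries in the same litters. A member passed the filter only with enough counts in several libraries of a fit. For 100% acetophenone 17 of 56 members passed, for 1% acetophenone 7, and for the TMT fit only Olfr796. Fits with no filter took in every member with a count in the libraries of that fit, 52, 48 and 37 members, and called none of them.

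No member was called in any of the 5 comparisons, in either fit. With 100% acetophenone, 0 of 17 members and 0 of 11564 genes (0%) were called without the block, where 0 members and 61 genes had an unadjusted p under 0.05. With litter as a block, 11 genes (0.0951%) were called, none a member. In that fit 1 of 17 members and 610 of 11564 genes had an unadjusted p under 0.05. With 1% acetophenone, 0 of 7 members and 0 of 12077 genes (0%) were called without the block, where 0 members and 93 genes had an unadjusted p under 0.05. The block gave 1 gene (0.00828%), not a member. With it 1 of 7 members and 1028 of 12077 genes had an unadjusted p under 0.05. DESeq2 called 5 genes and 1 gene in these 2 comparisons, and no member at either threshold.

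Of the 17 members that passed the filter, Olfr791 had the smallest p with 100% acetophenone in both edgeR fits. Its counts were 1, 18 and 13 in the controls of litters 1 to 3 and 1, 69 and 40 at 100%, so litters 2 and 3 were higher and litter 1 was near 0 in both. Its log2 fold change was 1.78 (SE 1.30), with an unadjusted p of 0.212 and an adjusted p of 1.00 in edgeR. With litter as a block it was 1.66 (SE 0.57, 95% interval 0.40 to 2.93), with an unadjusted p of 0.0154 and an adjusted p of 0.897. The groups overlapped through litter 1. With no filter and no block, Olfr819 (edgeR unadjusted p = 0.0361), Olfr818 (0.0790) and Olfr803 (0.0851) were higher at 100%. Olfr828 (0.0368) and Olfr809 (0.129) were lower. All of these had a smaller edgeR p than Olfr791 (0.177), each with an adjusted p of 0.99998. Olfr828 lies on chromosome 9 and had 33 counts in the control of litter 2. Olfr819, named after its values were seen, had 0, 0 and 0 unique counts in the controls of litters 1 to 3 and 2, 3 and 4 at 100%. With the block and estimated counts its unadjusted p was 0.00491 and its edgeR adjusted p 0.805. Of its estimated counts 8.22% were unique, and its closest receptor Olfr247, not a member, is 99.27% identical. The 1% dose gave Olfr791 20, 1 and 3 counts in litters 3 to 5, against 13, 3 and 0 in their controls.

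Olfr805 and Olfr786 came next. Olfr805 had 4, 25 and 11 counts in controls of litters 1 to 3 and 2, 54 and 47 at 100%, for a log2 fold change of 1.43 (SE 1.11) without and 1.16 (SE 0.63) with the block. Olfr786 had 4, 25 and 25 counts in controls and 6, 44 and 46 at 100%, for 0.87 (SE 0.95) and 0.82 (SE 0.47). Neither passed the edgeR threshold, with an adjusted p of 0.897 for both with the block. Olfr805 is 94.15% identical to its neighbour Olfr806, and 37.12% of its estimated counts were unique.

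Among the other abundant members, Olfr801 had 4, 28 and 24 counts in the controls of litters 1 to 3 and 4, 59 and 42 at 100%. Olfr799 had 0, 45 and 14 against 0, 55 and 48, and Olfr788 1, 63 and 15 against 3, 55 and 43. These 3 were low in litter 1 whatever the group, and their groups overlapped. Olfr821 had 9, 35 and 20 counts in controls and 13, 38 and 40 at 100%. Olfr812 had 0, 41 and 11 against 9, 39 and 20, and Olfr771 had 13, 56 and 27 against 7, 33 and 43.

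The log2 fold change of the 17 tested members was above 0 for 13 without and 15 with the block. Their median was 0.43, beside 0.38 over the 321 receptors tested and -0.01 over all genes tested. With the block these medians were 0.60, 0.41 and 0.01. Single libraries moved the members' median without the block: it was -0.07 without the control of litter 1 (8 of 21 members above 0), 0.04 without the 100% library of litter 2, 0.16 without that of litter 3, 0.95 without that of litter 1 and 1.27 without the control of litter 2. TMM-scaled CPM, the scale of the fits, were higher than the litter's control in every litter for 3 of 17 members (Olfr786, Olfr808 and Olfr821), where 14.8% of all genes tested and 104 of 321 receptors were. They were lower in every litter for Olfr820, where 13.4% of genes and 27 receptors were. CPM without TMM scaling were higher in every litter for 5 of 17 (Olfr791 and Olfr801 besides those 3), where 18% of genes and 114 receptors were. On that scale Olfr820 was again lower in every litter, as 10% of genes and 22 receptors were. Scaling to receptor counts turned the members' median to -0.15 and moved the median of all genes to -0.49.

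**Figure D5:**
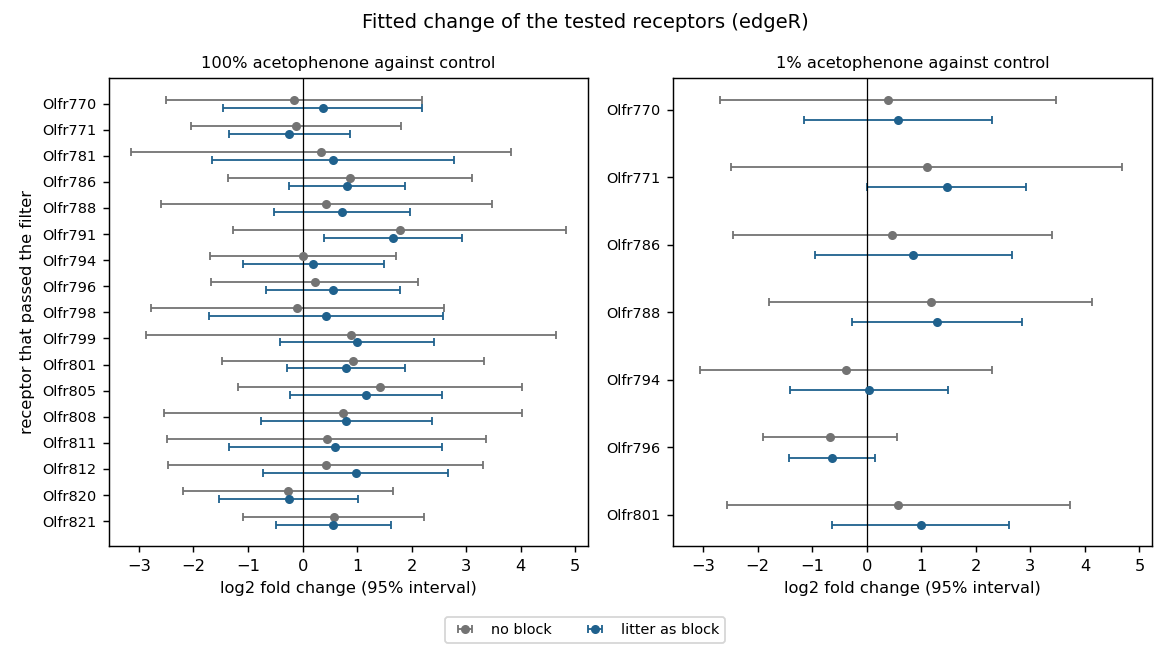
Points are edgeR log2 fold changes of the members that passed the filter, 17 for 100% and 7 for 1% acetophenone, with 95% intervals, in grey without a block and in blue with litter as a block. All grey intervals include 0. Of the blue ones, those of Olfr791 (100%) and Olfr771 (1%) do not, before adjustment for all genes tested.

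With 1% acetophenone, Olfr771 had the smallest p with the block among the 7 members that passed the filter. Its counts were 27, 5 and 0 in the controls of litters 3 to 5 and 46, 13 and 6 at 1%, higher in each litter, while the groups overlapped. The log2 fold change was 1.10 (95% interval -2.48 to 4.68) without and 1.47 (SE 0.63, 95% interval 0.01 to 2.92) with the block, where edgeR gave an unadjusted p of 0.0489 and an adjusted p of 0.585. Olfr788 had 15, 12 and 0 counts in controls and 32, 15 and 7 at 1%, for 1.18 (SE 1.24) without and 1.29 (SE 0.67) with the block. Olfr796 went down, from 52, 34 and 51 counts to 21, 22 and 40, for -0.68 (SE 0.51) and -0.64 (SE 0.34), which did not pass the edgeR threshold. With the block and no filter, 5 of 48 members had an edgeR unadjusted p under 0.05, all higher. Of the 18966 genes in that fit, 674 were higher and 512 lower at that unadjusted p. The members' median log2 fold change was 1.06, beside 0.64 over receptors. Olfr811, Olfr821, Olfr784 and Olfr812 had a smaller p than Olfr771. Olfr811 was named after its values were seen. Its counts were 3, 1 and 0 in the controls of litters 3 to 5 and 32, 3 and 7 at 1%. Its log2 fold change was 3.28 (SE 0.99), with an unadjusted p of 0.00722 and an adjusted p of 0.504 in edgeR.

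Higher TMM-scaled CPM at 1% than in the control in every litter were found for 4 of 7 tested members (Olfr771, Olfr786, Olfr788 and Olfr801), where 16.7% of genes and 63 of 234 receptors were. Lower values in every litter were found for Olfr796, where 14.9% of genes and 16 receptors were. CPM without TMM scaling gave the same 4 and the same 1 member, beside 13.6% of genes higher and 18.1% lower. The median log2 fold change of the 7 was 0.47, beside 0.36 over 234 receptors and 0.01 over all genes tested. Without the 1% library of litter 3, in which 39 members were detected, the members' median was -0.50, and without any other single library it was 0.47 to 2.06. The 100% and 1% comparisons share the control of litter 3.

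In the TMT comparisons Olfr796 alone passed the filter. Its log2 fold change at 100% TMT was -0.89 (SE 0.90, 95% interval -2.82 to 1.04) without and -0.60 (SE 1.01) with the block, with edgeR adjusted p of 0.699 and 0.806. At 1% TMT it was -0.24 (SE 0.88) and 0.11 (SE 0.93), so the sign turned with the block. Between the 100% and 1% doses it was -0.65 (SE 0.90) and -0.71 (SE 1.02). The 95% intervals without the block reached past -1 and 1 on the log2 scale in all 3 comparisons, so changes of that size were not detectable.

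Without the block 0 of 13233 genes (0%) were called at 100% TMT, 0 (0%) at 1% TMT and 0 (0%) between the doses, where 1944, 568 and 697 genes had an unadjusted p under 0.05 and Olfr796 did not. With the block, 314 genes (2.37%) were called at 100% TMT, 1 gene (0.00756%) at 1% TMT and 0 genes (0%) between the doses, where 1068 genes had an unadjusted p under 0.05. DESeq2 called 483, 4 and 22 genes, Olfr796 not among them. The median log2 fold change of the 133 receptors tested was 0.88 at 100% TMT and 0.58 at 1% TMT, so Olfr796 lay below it in both.

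Members that did not enter the TMT fit are given by their counts. Olfr771 had 26 counts in the 1% TMT library of litter 1, 6 in the 100% library and 0 in the control. Olfr812 had 24, 0 and 0 in the same libraries, and Olfr821 had 20, 6 and 0. In litters 2 to 4 these 3 members had at most 6 counts in any library. Most of these members' counts at 1% TMT came from that 1 library, in which 33 members were detected, against 5 in the control and 16 in the 100% library of that litter. In the edgeR fit at 1% TMT with no filter and no block, 9 of 37 members had an unadjusted p under 0.05, all higher. Of all 18809 genes in that fit, 684 were higher and 333 lower at that unadjusted p. Of the 37 members, 33 had a log2 fold change above 0. The members' median there was 3.95, beside 1.83 over receptors, and with the block 0 of 37 had an unadjusted p under 0.05 and the medians were 2.39 and 1.42. None of the 37 was called in either fit, and neither was run without the 1% library of litter 1.

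Genes of receptor choice, trafficking and odor transduction were read from a list of 27, of which 26 are in the files. This list includes Lhx2, Ldb1 and Ebf1, which act at receptor gene enhancers, and Adcy3, Gnal and Cnga2, which turn receptor activation into a current. Among 22 tested in each acetophenone comparison, 0 were called in either edgeR fit. Among 25 tested in the TMT comparisons, 0 were called without the block, and with the block 3 were called at 100% TMT, where 2.37% of all genes were, and 0 otherwise. Slc12a2, a chloride importer, rose by 3.20 (SE 0.47, adjusted p = 0.0143) on the log2 scale. Arrb2, an arrestin, fell by 0.90 (SE 0.17, adjusted p = 0.0293), and Lhx2 fell by 0.65 (SE 0.15, adjusted p = 0.0496). These 3 calls come from edgeR with the litter block. The summed CPM of the list was 3633.8 to 7674.5 in acetophenone controls and 2288.1 to 5057.2 in TMT controls.

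Markers of olfactory epithelium were present in all 23 libraries, with Omp at 113.6 to 2229 CPM and Cyp2g1, an enzyme of sustentacular cells, at 130.9 to 2541 CPM. Of the other cell types, 5 markers of glands and secretory cells summed to 25253 to 58184 CPM in the acetophenone experiment. In the TMT experiment they summed to 26155 to 107290 CPM in controls, 47229 to 81657 at 1% and 67481 to 98324 at 100%. Markers of ensheathing glia summed to 1056 to 1341 CPM in TMT controls, 882.7 to 1093 at 1% and 596.9 to 697.2 at 100%. Blood and immune markers, 4 genes, summed to 587.7 to 3028 CPM in the acetophenone experiment, 2649 to 5494 in TMT controls, 1995 to 13093 at 1% TMT and 1189 to 3208 at 100%. Muscle markers summed to 4.11 to 183.6 CPM over all libraries. The part of these cells in the members' values was not tested.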

How the data were processed

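The data are 23 RNA-seq libraries of pS6 pull-downs, 11 in the acetophenone and 12 in the TMT experiment. Bowtie, bedtools and the mm10 build are named in the submitters' processing notes. Their versions, the annotation and the strand handling were not given in these sources. Every deposited file has 20 value columns and no header. The first deposited column is whole-number counts, taken from its values as uniquely aligned reads. The deposited last column was taken, also from its values, as estimated counts with multiply aligned reads shared out. The last column was rounded for the fits, and 18 columns were not used. Unique counts summed to 2118099 to 9526932 per library, and no 2 libraries were identical. Antisense or overlapping transcripts cannot be told apart without strand information.

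Groups and litters came from the labels. edgeR 4.0.16 in R 4.3.3 (TMM, filterByExpr with a minimum count of 10, quasi-likelihood test, 2-sided, Benjamini-Hochberg, threshold 0.05) was fitted over all genes. Fits of an acetophenone dose took in only controls from its own litters, and the 12 TMT libraries entered 1 fit. Standard errors are the log2 fold change over the square root of F. The scripts were tested on simulated data. Litter labels pair the libraries. Deviations of same-litter libraries correlated at 0.57 to 0.796 (100% acetophenone), 0.718 to 0.888 (1%), 0.045 to 0.287 (100% TMT) and 0.018 to 0.341 (1% TMT). Those of different litters correlated at -0.655 to -0.012, -0.78 to 0.583, -0.144 to 0.045 and -0.269 to 0.127 in the same order. Between the TMT doses the values were -0.035 to 0.359 within litters and -0.289 to 0.274 between litters. In the TMT experiment these ranges met or overlapped. Coding identity is edit distance over the longer sequence (edlib 1.3.9.post1, GENCODE vM21). CPM divide by all unique counts of a library, and TMM-scaled CPM are edgeR's, used for direction within litters. Promoter windows and protein sequences were not used here. Labels do not say that libraries of a group are separate animals, so p-values measure the spread between these libraries. Without molecular identifiers, reads are not independent molecules, so the Wilson intervals may be too narrow even for counting error. Intervals of log2 fold changes come from the edgeR fits and take in the spread between libraries.

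Alternatives were litter as a block, DESeq2 1.42.0, library size alone, scaling to receptor counts, no filter, estimated counts and leaving out each library or litter. Members were named if they passed the threshold, had 1 of the 3 smallest p in either fit of a comparison, were among the 8 highest by mean CPM, or had no or under 10% unique counts. Olfr803, Olfr806, Olfr808, Olfr809, Olfr811, Olfr818, Olfr819, Olfr820, Olfr828 and members flagged for single libraries were named after their values were seen. The members and lists were chosen with earlier results of these data known.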

Additional observations from a re-analysis of the deposited data

Results flagged for a closer look

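A library was set apart when its gap to the nearest other library of its group, divided by the group's range, exceeded Dixon's 95% critical value for groups of 4 or 5. The sets checked were the members' share, members detected, Olfr796, the other 55 members, and each member with at least 20 counts in a group. Of these 42 sets of values, 17 were set apart. The 5 in 100 that chance gives holds for independent, normally distributed values. These sets share libraries and CPM cannot fall below 0, so 17 of 42 cannot be weighed against it. In the 1% TMT group, the flagged members reached 20 counts mainly through the library then set apart, as for Olfr771 with 26 of 27.

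In the 1% TMT group, the litter 1 library stood alone. Its share of receptor counts was 3.61%, with 1.15% as the next highest, and 33 members were detected against 9. The summed level of the members other than Olfr796 was 90.6 CPM against 1.97 CPM. Single members were also set apart in it: Olfr771 at 9.06 CPM, Olfr812 at 8.36, Olfr821 at 6.97, Olfr786 at 5.57 and Olfr770 at 4.53 CPM. This library held 2869995 counts, and 0.267% of them were on receptors.

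In the acetophenone controls, 5 members were set apart by the litter 2 library: Olfr788 at 22.0 CPM, Olfr828 at 11.5, Olfr811 at 9.78, and Olfr781 and Olfr784 at 5.94 CPM each. Olfr828, on chromosome 9, had 33 of its 36 counts in that library, 2 in the litter 3 control and 1 in the 100% library of litter 2. The litter 3 control set apart Olfr770 at 14.2 CPM, Olfr794 at 13.4 and Olfr827 at 9.62 CPM. In the TMT controls, the litter 4 library had a share of 1.94% against 0.872%, from 38 counts of Olfr796 among 40.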

How the results depend on the processing

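No member was called in any of 118 fits, but only the members tested in a fit could be called. Every TMT fit with the filter tested Olfr796 alone, and the first acetophenone fits tested 17 and 7 members. Within that limit the count of members called held at 0 under every alternative run. The number of all genes called, 0 without a block in each comparison, did change. With the replicate block it was 11 and 1 for 100% and 1% acetophenone and 314 and 1 for 100% and 1% TMT. DESeq2 gave 5, 1, 483 and 4, and 22 between the TMT doses. Scaling to receptor counts gave 18 and 3 for 100% and 1% TMT. The block with estimated counts gave 12 for 100% acetophenone, 465 for 100% TMT and 1 for 1% TMT, and the block with receptor scaling gave 130, 2, 4899, 2 and 2. The block with no filter, added after the data were seen, gave 119, 1, 559, 3 and 6. Leaving out a library, or a litter with the block, gave 0 to 28 (7 without litter 2) for 100% and 0 to 19 for 1% acetophenone, and 0 to 179 (17 without litter 4) for 100% and 0 to 1 for 1% TMT. Why these differ was not tested. Direction within litters on CPM without TMM scaling was added after the data were seen.

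The mean share in TMT controls moved to 0.242% without the top member, and the other 34 alternatives for the shares stayed within 1 SD. Of 345 alternative values for named members, 28 had the other sign and none was called. For 100% acetophenone, receptor scaling gave -0.17 for Olfr788, -0.155 for Olfr796 and -0.018 for Olfr821, and with the block -0.008 for Olfr796 and -0.008 for Olfr821. Leaving out libraries gave -0.84 (-0.79 without a block) to 0.50 for Olfr771, positive without 100% litter 1 or control litter 2 and at 0.093 without litter 2 in the block. It gave -0.15 to 2.01 for Olfr788, -0.29 to 1.32 (1.21 without a block) for Olfr796 and -0.19 to 1.91 for Olfr812, negative without control litter 1 or, for Olfr796 and Olfr812, 100% litter 2. For 1% acetophenone it gave -0.50 to 3.61 for Olfr771, -0.17 to 1.83 for Olfr786 and -0.37 to 2.41 for Olfr801, negative without 1% litter 3 or, for Olfr786 and Olfr801, control litter 5. Olfr796 ranged from -1.56 to 0.13 at 100% TMT and from -0.61 to 0.46 at 1% TMT (0.211 without control litter 1, and in the block 0.404 without litter 1 and 0.208 without litter 3), where the block gave 0.11, with estimated counts 0.11 and with no filter 0.10. At this depth 39 members passed the filter in no comparison.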
